A study of Mus musculus with 9 samples.

Results

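The genes described here are the secreted Wnt proteins, the receptors that bind them, the secreted proteins that hold them back and a few intracellular genes that are read as gauges of the pathway, measured in differentiated C2C12 cells after knockdown of either splice isoform of the histone variant macroH2A1. The rule takes genes by their symbols and uses no measured value. The members are the protein-coding Wnt, Fzd, Sfrp, Dkk and Rspo genes together with Lrp5, Lrp6, Frzb, Wif1, Ror1, Ror2, Axin2, Lef1, Tcf7, Nkd1 and Nkd2, and the rule found 52 of the 52780 genes in the deposited table. By role, 19 were Wnt ligands, 12 were Frizzled or LRP receptors, 2 were Ror receptors, 4 were R-spondins, 10 were secreted antagonists and 5 were intracellular regulators or transcription factors.

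Wnt proteins are lipid-modified secreted signals. Binding to a Frizzled receptor together with Lrp5 or Lrp6 keeps β-catenin from being destroyed, so that it can reach the nucleus and act through factors of the TCF/LEF family, while other branches run through Ror receptors, planar cell polarity proteins and calcium. Axin2, Nkd1, Nkd2 and Lef1 are known as genes that β-catenin signalling raises in many cells. Dkk proteins act at the LRP coreceptors, Sfrp proteins, Frzb and Wif1 bind the ligands, and R-spondins make cells more sensitive to Wnt by protecting the receptors from removal. In muscle, Wnt signals take part in the making of the embryonic muscle and in the behaviour of satellite cells in the adult.

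C2C12 cells are an established line of mouse myoblasts, and they fuse to form myotubes when serum is lowered. The study collected 9 samples, 3 with si Ctrl and 3 with each knockdown, named si mH2A1.1 and si mH2A1.2, all at day 4 of differentiation in horse serum medium and all transfected at 10 nM before, at and during differentiation. The labels name the control samples wild type, and the study's text names them si Ctrl. Polyadenylated RNA was sequenced as single reads of 50 bp, and the totals lay between 36924252 and 42223108 counts a sample. All samples come from 1 cell line, and the replicates are called independent biological replicates by the study. H2afy encodes both macroH2A1 isoforms, so its gene count does not separate them. It stood at 56.3, 62.4 and 61.0 CPM (counts per 1000000 counts of the library) in si Ctrl, at 38.8, 30.0 and 30.9 CPM with si mH2A1.1 and at 46.8, 47.2 and 43.2 CPM with si mH2A1.2.

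The sequences below were taken from RefSeq (build GRCm38.p6) and show the promoters of the members that differed from si Ctrl in either knockdown, as far as the promoter table holds them. It held 36 of the 52 members and 6 of these 9. Each window runs 5′ to 3′ on the gene's own strand from 250 bases before the annotated start to 50 bases after it, and capitals mark matches to the TCF/LEF letters CTTTGAA or CTTTGAT, to the E-boxes CAGCTG or CACCTG, which myogenic factors of the MyoD family can bind, and to the TATA letters TATAAA. Both strands were searched, and no matches overlapped in the members' windows. The windows lie at chr2:80447347-80447646 (minus strand, Frzb), chr3:131110073-131110372 (plus, Lef1), chr4:137277385-137277684 (plus, Wnt4), chr7:98834862-98835161 (plus, Wnt11), chr5:4758167-4758466 (minus, Fzd1) and chr11:59306680-59306979 (plus, Wnt9a). Their starts lay 0 to 229 bases from the gene ends in the annotation used for the counts.
Wnt4: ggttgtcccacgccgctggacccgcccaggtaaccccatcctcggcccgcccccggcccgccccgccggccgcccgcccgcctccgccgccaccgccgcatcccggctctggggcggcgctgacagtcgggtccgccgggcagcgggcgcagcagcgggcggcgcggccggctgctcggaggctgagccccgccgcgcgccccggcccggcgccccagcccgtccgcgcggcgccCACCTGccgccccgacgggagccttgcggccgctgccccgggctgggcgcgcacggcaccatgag
Wnt11: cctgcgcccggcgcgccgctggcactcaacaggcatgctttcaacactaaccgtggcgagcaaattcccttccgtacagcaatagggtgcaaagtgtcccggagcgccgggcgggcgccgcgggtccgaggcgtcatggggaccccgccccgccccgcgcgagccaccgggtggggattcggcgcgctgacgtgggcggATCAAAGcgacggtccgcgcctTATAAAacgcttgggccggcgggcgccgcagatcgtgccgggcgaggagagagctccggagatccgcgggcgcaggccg
Wnt9a: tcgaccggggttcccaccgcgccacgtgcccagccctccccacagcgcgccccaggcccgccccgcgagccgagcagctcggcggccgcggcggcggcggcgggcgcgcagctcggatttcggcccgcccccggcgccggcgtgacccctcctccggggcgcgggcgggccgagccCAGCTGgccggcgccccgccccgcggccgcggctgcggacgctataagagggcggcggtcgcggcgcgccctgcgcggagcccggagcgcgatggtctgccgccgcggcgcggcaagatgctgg
Fzd1: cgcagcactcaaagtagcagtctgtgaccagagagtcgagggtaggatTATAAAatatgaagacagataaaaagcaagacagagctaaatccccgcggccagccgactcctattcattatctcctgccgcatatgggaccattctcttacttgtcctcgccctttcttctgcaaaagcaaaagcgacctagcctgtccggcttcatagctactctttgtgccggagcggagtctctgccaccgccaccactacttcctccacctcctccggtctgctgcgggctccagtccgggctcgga
Frzb: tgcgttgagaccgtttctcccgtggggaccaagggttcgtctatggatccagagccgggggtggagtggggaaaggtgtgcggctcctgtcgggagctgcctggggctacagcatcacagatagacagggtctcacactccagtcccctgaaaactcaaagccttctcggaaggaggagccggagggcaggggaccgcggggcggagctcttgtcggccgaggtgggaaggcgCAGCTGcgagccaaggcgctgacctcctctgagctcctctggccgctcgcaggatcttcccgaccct
Lef1: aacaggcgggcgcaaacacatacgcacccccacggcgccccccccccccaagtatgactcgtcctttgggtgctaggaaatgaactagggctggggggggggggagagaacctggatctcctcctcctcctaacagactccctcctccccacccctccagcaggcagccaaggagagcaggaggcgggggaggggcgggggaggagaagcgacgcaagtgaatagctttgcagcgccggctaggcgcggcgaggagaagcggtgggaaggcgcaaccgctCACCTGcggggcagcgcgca

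Wnt11 was the only one of these 6 with a TCF/LEF match, on the reverse strand 51 bases before the start, and it has a TATA match 29 bases before the start. Frzb, Wnt4 and Wnt9a have an E-box 17, 15 and 74 bases before the start, Lef1 has one that begins at base 31 after the start, and Fzd1 has a TATA match 202 bases before it. Among the 36 members with a window, 2 had a TCF/LEF match, 15 had an E-box and 5 had a TATA match. Of all 32851 promoter windows in the table, 8.65% held a TCF/LEF match, 32.9% an E-box and 13.6% a TATA match. The windows of Wnt4 and Wnt9a were 84.3% and 83.3% G or C, with 51 and 58 CpG sites, against 54.0% and 16 sites in the window of Fzd1. These are matches of letters only.

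Not all of the family was detected in day-4 C2C12 cells. Of the 52 members, 9 had a median of 3 counts or fewer in every condition and are given by name only: Wnt1, Wnt2, Wnt3a, Wnt7a, Wnt8a, Wnt9b, Fzd10, Dkk4 and Sfrp5. The limit of 3 counts, the amount that a count of 0 still allows, was between 0.0691 and 0.0826 CPM. A further 7, Wnt3, Wnt8b, Wnt16, Rspo2, Rspo4, Dkk1 and Nkd1, reached more than this in some condition but did not pass the filter on low counts, and no untested member had more than 12 counts in any sample. The other 36 members were tested, 10 of the 19 ligands, 11 of the 12 Frizzled and LRP receptors, both Ror receptors, 2 of the 4 R-spondins, 7 of the 10 antagonists and 4 of the 5 intracellular genes.

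To set genes side by side, counts were divided by the length of their annotated exons (CPM per kb). The receptors were the strongest members on this scale. The medians in si Ctrl were 18.3 CPM per kb for Fzd2, 15.0 for the coreceptor Lrp5 and 13.8 for Fzd7. The si Ctrl samples of Lrp5 overlapped those of Fzd2 and of Fzd7, while every Fzd2 sample lay above every Fzd7 sample. Among the ligands, Wnt10a stood highest (9.14 CPM per kb), followed by Wnt10b (5.90) and Wnt9a (3.90). The transcription factor Tcf7 stood at 11.0, more than 10 times the medians of Lef1 (0.666) and Axin2 (0.418). Secreted antagonists were led by Sfrp2 (3.04), Dkk2 (2.17) and Dkk3 (0.809), and Ror2 (0.553), Ror1 (0.380) and Rspo3 (0.559) were lower still.

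**Figure D1:**
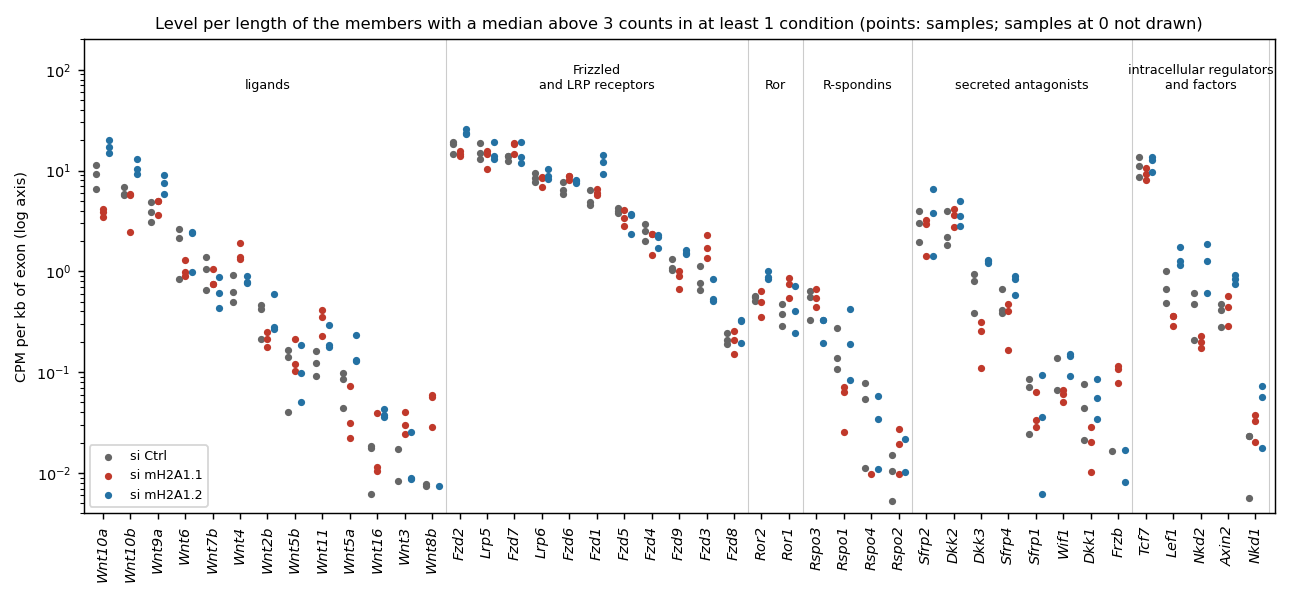
Level of 43 members in each sample, as CPM per kb of exon on a log axis, ordered within each role by the si Ctrl median; each point is 1 sample, grey for si Ctrl, red for si mH2A1.1 and blue for si mH2A1.2, and samples at 0 are not drawn. Fzd2, Lrp5 and Fzd7 lie near the top with si Ctrl medians of 13.8 to 18.3, and Wnt10a leads the ligands at 9.14.

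The first question of the design was what the loss of macroH2A1.1 changed. With si mH2A1.1, 4 of the 36 tested members rose (Wnt4, Wnt11, Fzd3 and Frzb) and 3 fell (Wnt10a, Dkk3 and Lef1) at an adjusted p of 0.05 or less (edgeR). Frzb entered the test only through the si mH2A1.1 samples, and without it 3 of 35 rose and 3 fell. Over all 19545 genes tested, 6.18% rose and 4.93% fell. The median log2 fold change of the tested members was -0.20, against -0.01 over all genes, with 13 members above 0 and 23 below. A stricter threshold was an adjusted p below 0.01 with a change of 0.8 or more on the log2 scale, the study's own cutoffs. In edgeR 1 member passed it (Wnt10a), as did 1.80% of all genes. In DESeq2, the tool of the study, 6 passed (Dkk3, Fzd3, Lef1, Wnt10a, Wnt11 and Wnt4), as did 4.95% of all genes.

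The ligands moved in both directions. Wnt10a, a ligand of the β-catenin branch, stood at 16.1, 28.1 and 22.6 CPM in si Ctrl, at 9.51, 10.3 and 8.55 CPM with si mH2A1.1 and at 36.6, 49.3 and 41.8 CPM with si mH2A1.2. The 3 conditions did not overlap, with si mH2A1.1 lowest and si mH2A1.2 highest. Wnt10a fell 2.35-fold with si mH2A1.1 (log2 fold change -1.23 ± 0.19 SE, adjusted p = 0.00590).

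Wnt4, a ligand used in kidney and gonad development and often placed in the branches without β-catenin, went the other way. It was found at 2.06, 2.64 and 3.87 CPM in si Ctrl and at 8.05, 5.80 and 5.62 CPM with si mH2A1.1, and every si mH2A1.1 sample lay above every si Ctrl sample. The rise was 2.27-fold (log2 fold change 1.18 ± 0.24 SE, adjusted p = 0.0163). With si mH2A1.2 it stood at 3.77, 3.31 and 3.22 CPM, inside the si Ctrl range.

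Wnt11, a ligand of planar cell polarity signalling, was measured at 0.375, 0.666 and 0.516 CPM in si Ctrl and at 1.70, 0.939 and 1.45 CPM with si mH2A1.1. The samples did not overlap, and the log2 fold change was 1.39 ± 0.33 SE (adjusted p = 0.0284). The si mH2A1.2 samples, at 0.771, 0.731 and 1.21 CPM, also lay above si Ctrl, but this difference did not pass (log2 fold change 0.80, adjusted p = 0.290). An exon of Wnt11 shares 364 bases with the pseudogene Gm8398 on the other strand.

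Among the receptors, Fzd3, known for planar cell polarity and axon guidance, stood at 14.5, 8.34 and 9.90 CPM in si Ctrl, at 29.2, 17.3 and 22.1 CPM with si mH2A1.1 and at 10.8, 6.52 and 6.77 CPM with si mH2A1.2. In each condition the first replicate was the highest and the second was the lowest. The si mH2A1.1 samples lay above both other conditions, and the rise over si Ctrl was 2.09-fold (log2 fold change 1.07 ± 0.27 SE, adjusted p = 0.0331). Fzd6 and Fzd7 with si mH2A1.1 also lay above every si Ctrl sample, with log2 fold changes of 0.36 (95% interval 0.12 to 0.61, adjusted p = 0.0611) and 0.35 (-0.02 to 0.72, adjusted p = 0.193). The coreceptors Lrp5 and Lrp6 did not pass, with intervals of -0.63 to 0.23 and -0.38 to 0.18.

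Of the antagonists, Dkk3, a divergent member of the Dickkopf family whose action on Wnt is debated, was found at 1.31, 2.72 and 3.15 CPM in si Ctrl, at 0.370, 1.06 and 0.852 CPM with si mH2A1.1 and at 4.07, 4.36 and 4.27 CPM with si mH2A1.2. The 3 conditions were in the same order as for Wnt10a and did not overlap. The fall with si mH2A1.1 was 3.13-fold (log2 fold change -1.65 ± 0.39 SE, adjusted p = 0.0268). Frzb, a Wnt-binding relative of the Sfrp proteins, had 2, 0 and 0 counts in si Ctrl, 15, 14 and 11 counts with si mH2A1.1 and 2, 1 and 0 counts with si mH2A1.2. Only si mH2A1.1 samples reached the level the filter asks for, so it could enter the test only if it differed. From the summed counts it was 18.3 times as high as in si Ctrl (exact 95% counting interval 4.74 to 156, adjusted p = 0.0168), at 0.253 to 0.370 CPM a very low level for a secreted protein's RNA.

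Lef1, the TCF/LEF factor that β-catenin signalling itself raises in many tissues, fell with si mH2A1.1. Its values were 4.28, 8.90 and 5.85 CPM in si Ctrl, 3.16, 2.52 and 3.18 CPM with si mH2A1.1 and 10.0, 15.2 and 11.0 CPM with si mH2A1.2. Again no condition overlapped another, and the fall was 2.15-fold (log2 fold change -1.10 ± 0.27 SE, adjusted p = 0.0292). The other 3 intracellular genes tested did not pass, with log2 fold changes of -0.26 for Tcf7, -1.11 for Nkd2 (adjusted p = 0.137, and 0.0462 with a replicate block) and 0.14 for Axin2. Lef1 shares 1208 exon bases with an antisense gene, and a library without strand information could not separate the reads.

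Single samples carried much of this comparison. Wnt10a was the only member that stayed past the threshold whichever sample was left out. Without the first si mH2A1.1 sample it was the only member called, and 2 members were called without the second or without the third si Ctrl sample and 3 without the third si mH2A1.1 sample. Of all genes, 11.1% were called with all samples and 3.45%, 2.99%, 4.02% and 3.33% in these fits, in the order given.

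**Figure D2:**
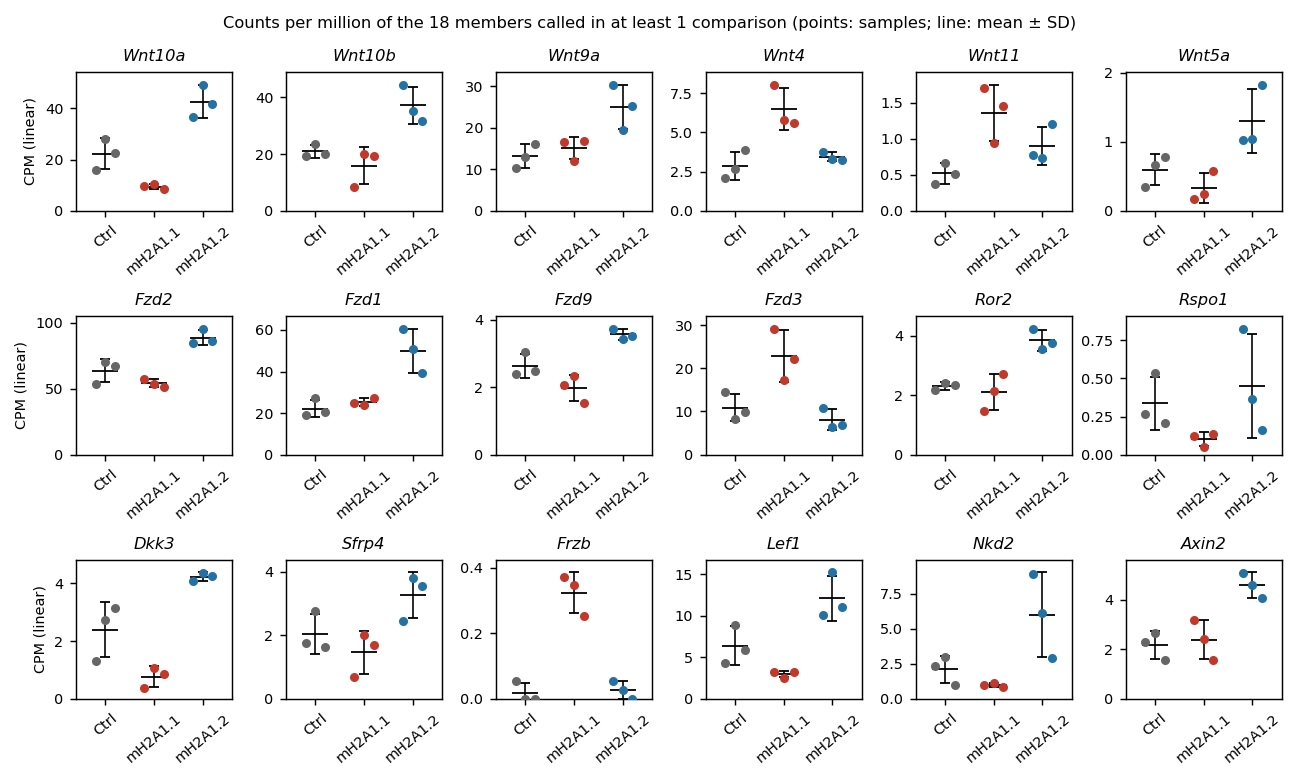
CPM on linear axes from 0 for the 18 members called in at least 1 comparison; points are samples, and the line with bars is the mean ± SD of 3 samples. Wnt10a, Dkk3 and Lef1 are lowest with si mH2A1.1 and highest with si mH2A1.2 in all samples, while Wnt4, Fzd3 and Frzb are highest with si mH2A1.1.

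The second question was what the loss of macroH2A1.2 changed. With si mH2A1.2, 3 members rose (Wnt10a, Wnt9a and Fzd1) and 0 fell. Of all genes tested, 1.37% rose and 0.982% fell. At an unadjusted p under 0.05, 12 members were higher and 1 was lower, where 8.18% of all genes were higher and 7.73% were lower. DESeq2 called 8 members higher and 0 lower, and 3.28% of all genes higher and 2.62% lower. Its 8 members were the same 3 together with Axin2, Nkd2, Lef1, Fzd2 and Ror2. At the stricter threshold 0 members passed in edgeR (13 had an unadjusted p under 0.05). In DESeq2 4 passed (Axin2, Fzd1, Wnt10a and Wnt9a). The shares of all genes that passed were 0.179% in edgeR and 1.99% in DESeq2. The median log2 fold change of the tested members was 0.41 and their quartiles were 0.06 and 0.82, with 28 above 0 and 8 below. Over all genes the median was -8.35e-05 and the quartiles were -0.20 and 0.20.

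Fzd1, a receptor of the β-catenin branch, gave the smallest adjusted p of the members in this comparison. It stood at 19.2, 27.0 and 20.4 CPM in si Ctrl, at 25.1, 23.8 and 27.3 CPM with si mH2A1.1 and at 60.4, 50.7 and 39.2 CPM with si mH2A1.2. Every si mH2A1.2 sample lay above the samples of both other conditions, and the rise over si Ctrl was 2.26-fold (log2 fold change 1.17 ± 0.17 SE, adjusted p = 0.0132). Fzd2, the strongest receptor, was 53.6, 70.0 and 67.1 CPM in si Ctrl and 84.7, 95.8 and 86.3 CPM with si mH2A1.2, also without overlap, but just missed the threshold (log2 fold change 0.48, 95% interval 0.24 to 0.73, adjusted p = 0.0533).

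Wnt10a, given above, rose 1.91-fold (log2 fold change 0.94 ± 0.19 SE, adjusted p = 0.0359). Wnt9a, a ligand first studied in joints and blood stem cells, was found at 10.3, 13.0 and 16.1 CPM in si Ctrl, at 16.6, 12.0 and 16.7 CPM with si mH2A1.1 and at 30.2, 19.5 and 25.3 CPM with si mH2A1.2. The si mH2A1.2 samples lay above the rest, and the rise was 1.91-fold with an adjusted p of 0.0499, at the edge of the threshold. Wnt10b, known for holding mesenchymal cells back from becoming fat, stood at 19.3, 23.6 and 20.1 CPM in si Ctrl and 44.6, 35.4 and 31.6 CPM with si mH2A1.2 and did not pass (log2 fold change 0.83, 95% interval 0.21 to 1.44, adjusted p = 0.170).

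Axin2, Nkd2 and Lef1 had higher means with si mH2A1.2 and did not pass in edgeR without a replicate block, while DESeq2 called all 3 higher. Axin2, a feedback brake on β-catenin, was 2.30, 2.64 and 1.55 CPM in si Ctrl, 3.16, 2.42 and 1.57 CPM with si mH2A1.1 and 5.09, 4.59 and 4.08 CPM with si mH2A1.2. The si mH2A1.2 samples lay above all others (log2 fold change 1.09 ± 0.28 SE against si Ctrl, adjusted p = 0.0780). Nkd2, which binds Dishevelled, was 2.30, 2.96 and 1.01 CPM in si Ctrl, 0.963, 1.11 and 0.829 CPM with si mH2A1.1 and 8.95, 6.16 and 2.93 CPM with si mH2A1.2. Here the third si mH2A1.2 sample lay within the si Ctrl range, and the log2 fold change was 1.52 ± 0.43 SE (adjusted p = 0.107). Lef1 was higher in every sample, with a log2 fold change of 0.93 ± 0.26 SE and an adjusted p of 0.101. Nkd1, a relative of Nkd2, had at most 12 counts in any sample and was not tested.

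Samples with the same replicate number in si Ctrl and si mH2A1.2 deviated together, and with the replicate number as a block 8 members were called in this comparison, 7 higher and 1 lower. The block also raised the share of all genes called, to 2.90% higher and 2.25% lower. The 3 members above were among them, and Axin2, Nkd2, Lef1 and Fzd2 were added on the higher side (adjusted p = 0.0199, 0.0204, 0.0494 and 0.0355) and Fzd3 on the lower side (log2 fold change -0.44, adjusted p = 0.0473). The unblocked count depended on single samples too. It was 0 without the first or the third si Ctrl sample or the second si mH2A1.2 sample (9, 14 and 12 members at an unadjusted p under 0.05), 1 without the first or the third si mH2A1.2 sample or the third si mH2A1.1 sample, and 3 otherwise. Of all genes, 0.367 to 2.72% were called with a sample left out, against 2.35% with all samples.

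**Figure D3:**
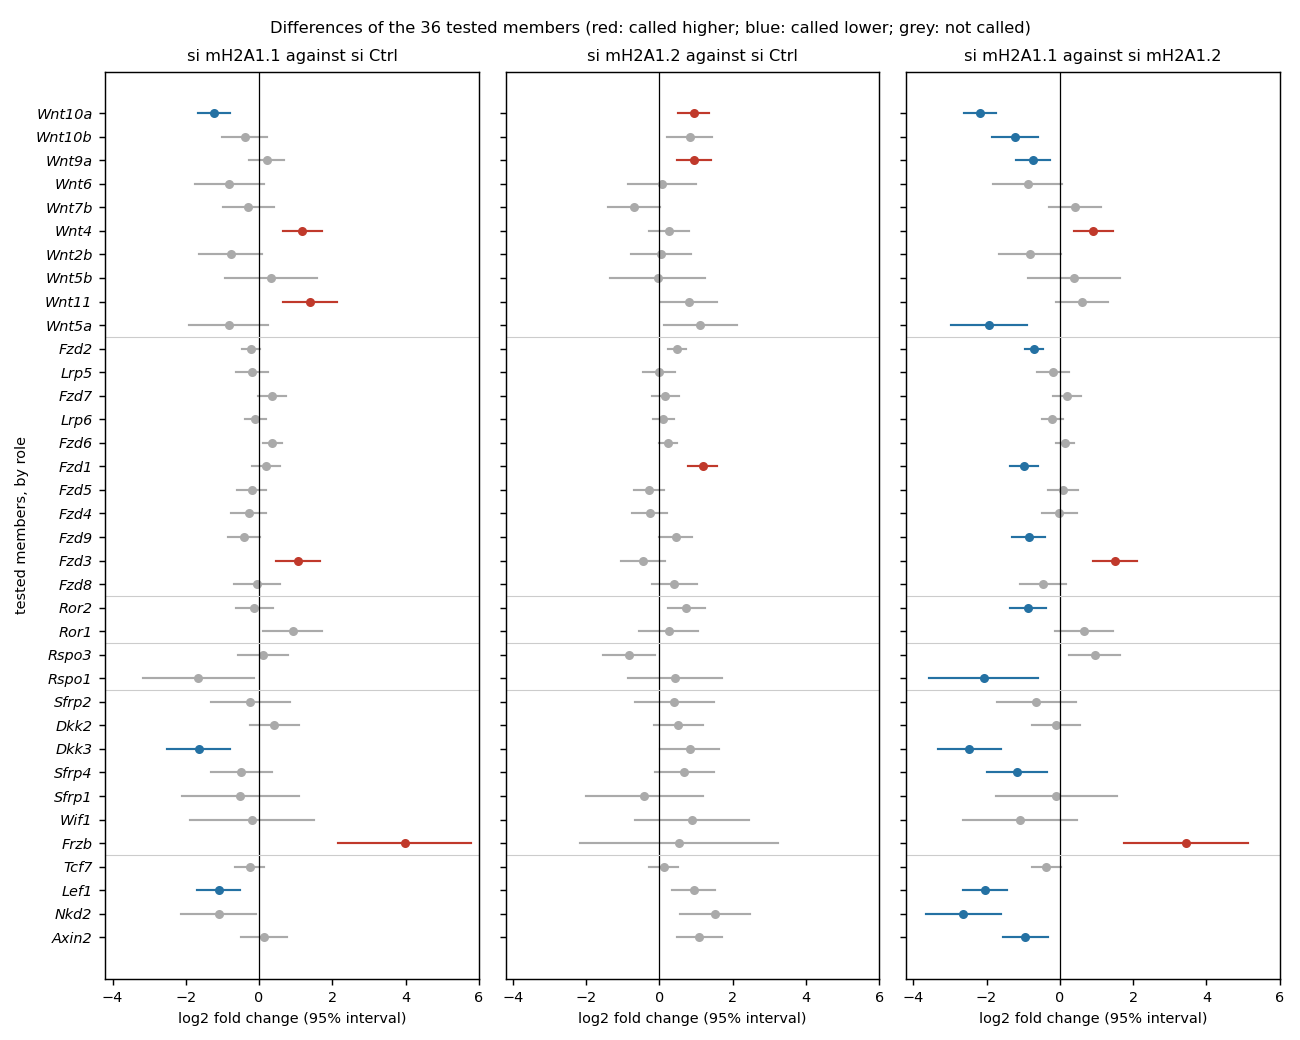
Log2 fold change (points) with its 95% interval (lines) for the 36 tested members, grouped by role, in the 3 comparisons; red was called higher, blue lower and grey neither. In the si mH2A1.2 panel 28 of the points lie above 0, and in the panel of si mH2A1.1 against si mH2A1.2 the called members are mostly blue (14 of 17); the value of Frzb depends on the prior count of the fit.

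The third comparison set the knockdowns directly against each other. It shares its samples with the other comparisons and gave the most calls, with 17 of 36 tested members called, 3 higher with si mH2A1.1 (Wnt4, Fzd3 and Frzb) and 14 lower. Without Frzb, which entered the test only through the si mH2A1.1 samples, 2 of 35 were higher and 14 lower. Over all genes tested, 12.0% were higher and 10.5% were lower. The median log2 fold change of the tested members was -0.55, against -0.01 over all genes. At the stricter threshold 6 members passed in edgeR (Wnt10a, Dkk3, Fzd1, Fzd3, Lef1 and Nkd2), as did 6.38% of all genes, and 12 members and 8.33% of all genes passed in DESeq2. Called lower were the ligands Wnt10a, Wnt10b, Wnt9a and Wnt5a, the receptors Fzd1, Fzd2, Fzd9 and Ror2, the R-spondin Rspo1, the antagonists Dkk3 and Sfrp4 and the intracellular genes Lef1, Nkd2 and Axin2.

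The smallest adjusted p of the members was that of Wnt10a, 4.50-fold lower with si mH2A1.1 than with si mH2A1.2 (log2 fold change -2.17 ± 0.20 SE, adjusted p = 0.000212). Wnt10b was 8.30, 20.1 and 19.4 CPM with si mH2A1.1, all below its 3 si mH2A1.2 values (log2 fold change -1.22 ± 0.28 SE, adjusted p = 0.0129), with the first si mH2A1.1 sample far below the other two. Wnt9a was 1.66-fold lower (adjusted p = 0.0315). Wnt5a, the best known ligand of Ror2, stood at 0.348, 0.666 and 0.773 CPM in si Ctrl, at 0.173, 0.247 and 0.576 CPM with si mH2A1.1 and at 1.02, 1.04 and 1.83 CPM with si mH2A1.2. The knockdowns did not overlap (log2 fold change -1.94 ± 0.47 SE, adjusted p = 0.0158). Its receptor Ror2 was 2.17, 2.42 and 2.35 CPM in si Ctrl, 1.48, 2.12 and 2.72 CPM with si mH2A1.1 and 4.24, 3.55 and 3.76 CPM with si mH2A1.2, and was also called lower with si mH2A1.1 (log2 fold change -0.87 ± 0.22 SE, adjusted p = 0.0211).

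Ror1, its close relative, was not called in any comparison. Its values were 2.76, 1.65 and 2.19 CPM in si Ctrl, 4.30, 4.99 and 3.16 CPM with si mH2A1.1 and 4.10, 2.35 and 1.40 CPM with si mH2A1.2. The si mH2A1.1 samples lay above si Ctrl (log2 fold change 0.91, 95% interval 0.11 to 1.71, adjusted p = 0.121) and overlapped si mH2A1.2. Ror1 took 46.1 to 68.1% of the summed Ror level per kb with si mH2A1.1, against 33.4 to 48.4% in si Ctrl and 21.5 to 41.6% with si mH2A1.2.

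The Frizzled receptors differed from one another. Fzd1 was 1.97-fold lower and Fzd2 1.64-fold lower with si mH2A1.1 than with si mH2A1.2 (adjusted p = 0.00391 and 0.00222). Fzd9 stood at 2.38, 3.04 and 2.48 CPM in si Ctrl, 2.07, 2.32 and 1.54 CPM with si mH2A1.1 and 3.74, 3.44 and 3.52 CPM with si mH2A1.2, in 3 separate ranges, and was 1.80-fold lower with si mH2A1.1 than with si mH2A1.2 (adjusted p = 0.0147). Fzd3 was 2.84-fold higher (log2 fold change 1.51 ± 0.27 SE, adjusted p = 0.00455). Of the 7 receptors called in no comparison (Lrp5, Lrp6, Fzd4, Fzd5, Fzd6, Fzd7 and Fzd8), the log2 fold changes between the knockdowns ran from -0.46 to 0.19. Summed over the 12 Frizzled and LRP genes, the level per kb was 67.6 to 79.8 in si Ctrl, 75.4 to 78.5 with si mH2A1.1 and 86.2 to 97.3 with si mH2A1.2. Fzd1 took 9.59 to 16.7% of this sum with si mH2A1.2 and 6.08 to 8.28% in the other samples.

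Among the antagonists, Dkk3 was 5.53-fold lower with si mH2A1.1 than with si mH2A1.2 (log2 fold change -2.47 ± 0.39 SE, adjusted p = 0.00228). Sfrp4 was 1.74, 2.77 and 1.62 CPM in si Ctrl, 0.692, 2.00 and 1.68 CPM with si mH2A1.1 and 2.45, 3.78 and 3.54 CPM with si mH2A1.2, and was called lower with si mH2A1.1 (log2 fold change -1.16 ± 0.37 SE, adjusted p = 0.0464). The antagonists with the highest level per kb were not called in any comparison. Sfrp2 was 8.51, 6.56 and 4.20 CPM in si Ctrl, 6.89, 6.40 and 3.09 CPM with si mH2A1.1 and 14.3, 8.11 and 3.09 CPM with si mH2A1.2, with the third replicate lowest in each condition. Dkk2 was 8.06, 14.7 and 6.70 CPM in si Ctrl, 10.3, 13.4 and 15.5 CPM with si mH2A1.1 and 13.1, 18.4 and 10.5 CPM with si mH2A1.2, with overlap throughout. Frzb was 12.0 times as high with si mH2A1.1 as with si mH2A1.2 from its summed counts of 40 and 3 (exact 95% counting interval 3.82 to 60.6, adjusted p = 0.0114), with the same limit that it entered the test only because it was high with si mH2A1.1.

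Of the 4 intracellular genes tested, 3 were called lower with si mH2A1.1 than with si mH2A1.2. All 4 had log2 fold changes below 0. Nkd2 was 6.20-fold lower (log2 fold change -2.63 ± 0.46 SE, adjusted p = 0.00373), Lef1 4.09-fold lower (-2.03 ± 0.27 SE, adjusted p = 0.00100) and Axin2 1.93-fold lower (-0.95 ± 0.28 SE, adjusted p = 0.0338). Tcf7, the TCF/LEF member with the highest level here, was 29.0, 35.6 and 22.8 CPM in si Ctrl, 24.3, 27.5 and 21.1 CPM with si mH2A1.1 and 33.2, 35.7 and 25.6 CPM with si mH2A1.2. Its conditions overlapped and it was not called without a replicate block (95% interval of the log2 fold change -0.77 to 0.02 between the knockdowns).

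Among the R-spondins, Rspo3 had 23 to 83 counts a sample and the other 3 had at most 30. Rspo1 had 10, 20 and 8 counts in si Ctrl, 5, 2 and 6 with si mH2A1.1 and 30, 14 and 6 with si mH2A1.2, and the third si mH2A1.2 sample equalled the highest si mH2A1.1 sample in counts. It was called lower with si mH2A1.1 than with si mH2A1.2 (log2 fold change -2.07 ± 0.67 SE, adjusted p = 0.0487) and lost the call in 9 of 14 alternatives. Rspo3, the R-spondin with the highest level, was 1.98, 1.01 and 1.73 CPM in si Ctrl, 2.05, 1.36 and 1.68 CPM with si mH2A1.1 and 1.02, 0.600 and 1.02 CPM with si mH2A1.2. The knockdowns did not overlap, with si mH2A1.2 lower, and the test missed the threshold (log2 fold change 0.95, adjusted p = 0.0562). Rspo4, not tested, had 1, 7 and 5 counts in si Ctrl, 0, 0 and 1 with si mH2A1.1 and 5, 1 and 3 with si mH2A1.2.

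Leaving out the first si mH2A1.1 sample brought the 17 calls between the knockdowns to 10, and leaving out the second si mH2A1.2 sample brought them to 11. The share of all genes called went from 22.5% to 12% and 11.2% in these fits. Dkk3, Fzd1, Fzd2, Fzd3, Lef1, Nkd2, Wnt10a and Wnt10b stayed past the threshold whichever sample was left out.

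Summed over the ligands, the level per kb was 18.4 to 27.4 in si Ctrl, 15.8 to 18.8 with si mH2A1.1 and 38.5 to 41.2 with si mH2A1.2. The si mH2A1.2 samples lay above all others, while si Ctrl and si mH2A1.1 overlapped. The make-up of the sum differed too. Wnt10a was 35.4 to 41.6% of it in si Ctrl, 18.5 to 24.3% with si mH2A1.1 and 36.5 to 48.6% with si mH2A1.2. Wnt4 was 2.29 to 3.77% of it in si Ctrl, 7.15 to 12.1% with si mH2A1.1 and 1.92 to 2.21% with si mH2A1.2. Wnt10a, Wnt10b and Wnt9a were the main parts in each condition. These sums rest on members whose values are tested above and were given no test of their own.

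**Figure D4:**
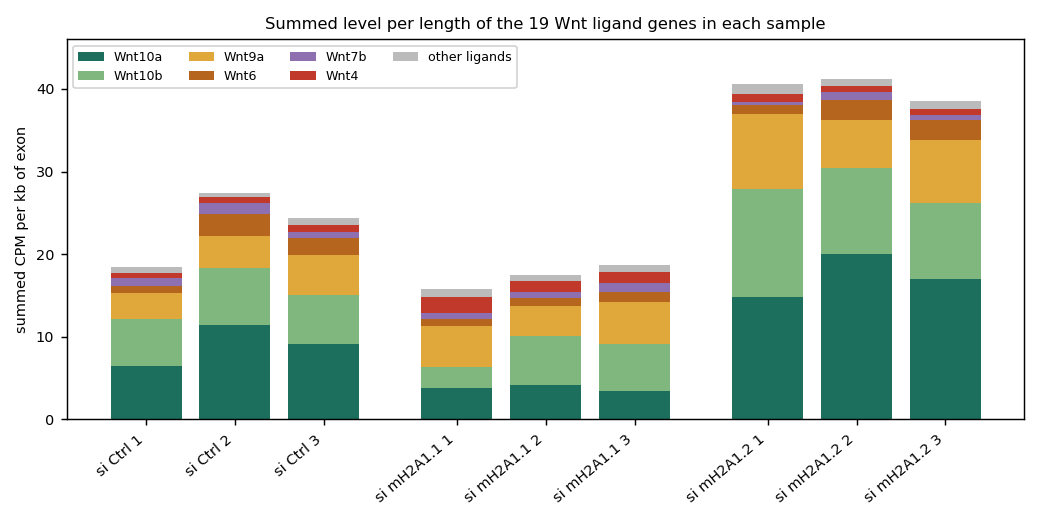
Bars give the summed CPM per kb of exon of the 19 ligand genes in each of the 9 samples, split by ligand. The si mH2A1.2 bars reach 38.5 to 41.2, above the si Ctrl bars (18.4 to 27.4) and the si mH2A1.1 bars (15.8 to 18.8), and the Wnt4 part is widest with si mH2A1.1.

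Some ligands lie side by side in the genome (GRCm38), and some of these neighbours were not detected alike. Wnt6 and Wnt10a lie 6193 bp apart on the plus strand of chromosome 1. Wnt6 was 1.85, 5.76 and 4.67 CPM in si Ctrl, 1.98, 2.17 and 2.83 CPM with si mH2A1.1 and 2.17, 5.40 and 5.24 CPM with si mH2A1.2, with overlap between all conditions and no call. On chromosome 15, Wnt10b and Wnt1 are separated by 11706 bp and transcribed away from each other, and Wnt1 had at most 9 counts in any sample, while Wnt10b had 336 to 1619. On chromosome 11, Wnt9a is 16175 bp from Wnt3a, which had at most 1 count, and Wnt3 is 24328 bp from Wnt9b, which had none, with at most 5 counts of its own.

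The other ligands tested, Wnt2b, Wnt5b, Wnt6 and Wnt7b, were not called in any comparison, and their log2 fold changes ran from -0.81 to 0.33 with si mH2A1.1 and from -0.70 to 0.06 with si mH2A1.2. The remaining uncalled antagonists, Sfrp1 and Wif1, were below 0.5 CPM in every sample, and their 95% intervals of the log2 fold change with si mH2A1.1 ran from -2.10 to 1.08 and from -1.88 to 1.49. Wnt8b was not tested and was chosen here after its values were seen. It had 1, 0 and 1 counts in si Ctrl, 8, 4 and 9 with si mH2A1.1 and 0, 1 and 0 with si mH2A1.2. From the summed counts, si mH2A1.1 was 9.60 times si Ctrl, with an exact 95% counting interval of 2.35 to 84.4 that leaves out the spread between samples.

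Outside the members, a list of 108 further Wnt pathway genes was counted, of which 97 were tested. With si mH2A1.1, 6 rose and 14 fell, against 6.18% and 4.93% of all genes. With si mH2A1.2, 9 rose and 0 fell, against 1.37% and 0.982%. At an unadjusted p under 0.05, 20 were higher and 5 lower, against 8.18% and 7.73% of all genes. DESeq2 called 14 of them and 5.9% of all genes. Between the knockdowns, 10 were higher with si mH2A1.1 and 29 were lower, against 12.0% and 10.5%. The median log2 fold changes of these genes were -0.04, 0.05 and -0.17, each nearer to 0 than that of the members.

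With si mH2A1.1 the largest changes among them were in Bmp4, Shisa2, Mycn, Celsr1 and Nfatc2. Bmp4, a secreted growth factor listed as a Wnt target, was 5.51, 13.7 and 8.92 CPM in si Ctrl, 0.593, 1.56 and 1.45 CPM with si mH2A1.1 and 17.7, 23.0 and 16.8 CPM with si mH2A1.2, in 3 separate ranges (log2 fold change -2.96, adjusted p = 0.00331 with si mH2A1.1). Shisa2, which holds Frizzled receptors back from the cell surface, rose from 2.17, 2.58 and 3.56 CPM to 15.9, 10.1 and 13.3 CPM (log2 fold change 2.24, adjusted p = 0.00227). Celsr1, a planar cell polarity cadherin, rose (1.87, adjusted p = 0.0267), and Nfatc2, a factor of the calcium branch, fell (-1.68, adjusted p = 0.0210). Mycn, a Wnt target in some tissues, had summed counts of 36 against 8, a ratio of 4.11 (exact 95% counting interval 1.88 to 10.2, adjusted p = 0.0494). Like Frzb, it entered the test only through the si mH2A1.1 samples.

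With si mH2A1.2 the largest rises were in Trabd2b, Cthrc1, Dact2, Prickle2 and Nfatc4. Trabd2b, which encodes a Tiki protease that cuts Wnt proteins and makes them inactive, was 2.36, 2.50 and 2.24 CPM in si Ctrl, 1.65, 2.62 and 2.14 CPM with si mH2A1.1 and 38.7, 18.4 and 13.3 CPM with si mH2A1.2. All si mH2A1.2 samples lay far above the others (log2 fold change 3.31, adjusted p = 0.00631). Cthrc1, a secreted protein that favours Wnt binding to Ror2, rose (2.00, adjusted p = 0.0234), as did Dact2, a Dishevelled partner (1.53, adjusted p = 0.0280), Prickle2 of planar cell polarity (1.43, adjusted p = 0.0382) and Nfatc4 (1.15, adjusted p = 0.0489). Between the knockdowns the 5 largest were Bmp4 (-3.99), Mycn, Trabd2b (-3.45), Cthrc1 (-3.09) and Nfatc4 (-2.54). For Mycn the summed counts were 36 and 2.

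Marker lists of other cell states moved with the knockdowns as well. Of 8 fibroblast and matrix genes, 4 fell with si mH2A1.1, 1 rose with si mH2A1.2 and 5 were lower with si mH2A1.1 than with si mH2A1.2. Their summed level was 12523 to 15375 CPM in si Ctrl, 4922 to 8363 CPM with si mH2A1.1 and 19703 to 28044 CPM with si mH2A1.2. Most of this sum was Col3a1, Col1a1 and Col1a2, with means of 8596, 2945 and 2400 CPM in si Ctrl. With si mH2A1.1, 6 of the 8 had a log2 fold change below 0 and 2 above 0 (Dcn 0.06 and Pdgfra 0.11). With si mH2A1.2, 6 were above 0 and 2 below 0, among them Lum (-0.52, not called). Of 8 cycling genes, 1 rose with si mH2A1.1, 0 were called with si mH2A1.2 and 8 were higher with si mH2A1.1 than with si mH2A1.2, with sums of 295 to 475, 431 to 906 and 231 to 346 CPM. All 8 interferon response genes rose with si mH2A1.1 (31.9 to 39.0 CPM in si Ctrl, 140 to 536 with si mH2A1.1 and 28.2 to 45.4 with si mH2A1.2). The 10 myotube markers summed to 14778 to 21040 CPM in si Ctrl, 12999.9 to 14734 with si mH2A1.1 and 12792 to 15987 with si mH2A1.2. Against si Ctrl, 1 was called higher (Mybpc1) and 1 lower (Myog) with si mH2A1.1, and 1 lower with si mH2A1.2. Between the knockdowns, 3 were higher with si mH2A1.1, among them Ckm and Mybpc1, and 1 was lower (Myog). The 8 satellite or reserve cell markers, 6 of them tested, summed to 341 to 427 CPM in si Ctrl, 298 to 362 with si mH2A1.1 and 452 to 490 with si mH2A1.2, and 2 were called higher and 3 lower with si mH2A1.1 than with si mH2A1.2. Against si Ctrl only Myf5 was called, lower with si mH2A1.2 (log2 fold change -0.84, adjusted p = 0.0422). Pax7 was also below 0 there (-0.68, not called), and the other 4 tested were above 0, among them Cd34 (0.74, not called). The 6 osteoblast markers, 4 of them tested, summed to 41.4 to 68.0 CPM in si Ctrl, 29.3 to 31.2 with si mH2A1.1 and 43.6 to 75.2 with si mH2A1.2. Against si Ctrl 1 was called lower with si mH2A1.1, and between the knockdowns 1 was called in each direction. Most of the osteoblast sum was Runx2, with 38.8, 66.0 and 41.4 CPM in si Ctrl. Dmp1 was the marker called higher with si mH2A1.1 than with si mH2A1.2 (log2 fold change 2.17, adjusted p = 0.00774). The endothelial, macrophage and adipocyte lists summed to at most 18.5 CPM in any sample, and Emcn, Erg, Adgre1, Adipoq and Lep had 3 counts or fewer in every sample. With si mH2A1.1, 1 endothelial and 1 macrophage marker were called higher than in si Ctrl. The macrophage marker was Cd68 (log2 fold change 1.62, adjusted p = 0.00565). The part of these lists in the members' differences was not tested, and in bulk RNA fewer cells of a type cannot be told apart from less RNA per cell.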

How the data were processed

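The authors estimated reads per gene with Salmon on mm10 and imported them for DESeq2. The deposited table holds these expected counts as whole numbers, and the other deposited table, a normalized signal, has each sample's counts scaled by its own size factor. The counts came to 36924252 to 42223108 a sample, and floors and the exact intervals of summed counts cover counting error only, while the intervals of log2 fold changes come from the fit and hold the spread between samples. GENCODE M21 gave names, positions and exon lengths for 52762 of the 52780 genes.

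Conditions were taken from the sample labels. Counts were tested with edgeR 4.0.16 (quasi-likelihood test, legacy form, TMM, filterByExpr, 19545 genes left) in R 4.3.3, with the 9 samples in 1 model and Benjamini-Hochberg adjustment over all genes. The threshold for a call was an adjusted p of 0.05. The tests were checked on simulated data. CPM uses TMM library sizes. Alternatives were DESeq2 1.42.0, its size factors in edgeR, other filters, a stricter threshold (adjusted p below 0.01 with a change of 0.8 or more on the log2 scale), a replicate block, the newer quasi-likelihood form, only the samples compared, and leaving out each sample. Replicate numbers were checked for pairing. Deviations of same-numbered samples correlated at 0.196 to 0.331 between si Ctrl and si mH2A1.2, above 0.1 in each of 3 pairs, at 0.0841 to 0.0976 between si Ctrl and si mH2A1.1, and at 0.0917 to 0.116 between the knockdowns. The numbers come from the sample titles.

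Members and lists were chosen with earlier results of these data known. Named were members called in any comparison, the 3 with the highest level per kb in si Ctrl in each role, and of the other pathway genes the 5 largest called changes per comparison. Per-kb levels use all annotated exons of a gene and so depend on the isoforms present.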

Additional observations from a re-analysis of the deposited data

How the results depend on the processing

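The direction of each of the 27 calls of members was kept under every alternative that gave a value. The stricter threshold lost 20 of the 27 calls. With a sample left out, calls were lost in 72 of 239 checks. DESeq2's size factors and no filter on low counts kept all 27. Under the stricter threshold the members called numbered 1 with si mH2A1.1 (Wnt10a), 0 with si mH2A1.2 and 6 between the knockdowns (Wnt10a, Dkk3, Fzd1, Fzd3, Lef1 and Nkd2), where 1.80%, 0.179% and 6.38% of all genes passed. DESeq2 gave 6, 4 and 12 members at that threshold, and 4.95%, 1.99% and 8.33% of all genes. With si mH2A1.2, DESeq2 called 8 members (5.9% of all genes) and the fit without a filter called 7 (1.81% of all genes). The replicate block called 9 members for si mH2A1.1, 8 for si mH2A1.2 and 18 between the knockdowns, where Rspo1 lost its call (adjusted p = 0.0560) and Rspo3 (0.0104) and Tcf7 (0.0136) gained one. For si mH2A1.1 the block added Nkd2 (adjusted p = 0.0462) and Fzd6 (0.0270), which DESeq2 called too. Of all genes the block called 20.8%, 5.14% and 29%. In each pair of conditions every sample correlated best with the sample of its own number, a hint from the data and not from the design. Leaving out 1 sample gave 1 to 7, 0 to 3 and 10 to 18 members, with 2.99 to 14.6%, 0.367 to 2.72% and 11.2 to 23.0% of all genes called. The median of the tested members with si mH2A1.2 was 0.35 under the block. The cause of these shifts was not tested. Depth limits the low members: the median SE was 0.67 for the 7 tested members below 1 CPM on average and 0.27 for the other 29.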
